A study of Mus musculus with 9 samples.

Results

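The comparison described here was PFI-3 added to TGF-β against TGF-β alone, in 6 of the 9 RNA-Seq libraries of the series and over the 14879 of 55416 listed genes that passed a filter on low counts. The members were chosen by their labels only, as the 3 libraries of the TGF-β group and the 3 of the group named Both. The cells were AdvSca1-SM cells, smooth muscle–derived Sca1+ progenitors of the arterial adventitia, sorted by YFP and Sca1 from large arteries (aorta and carotids) of several SM22α-Cre-YFP mice, pooled, and grown in culture. SM22α-Cre marks smooth muscle cells and their descendants, so a rare Sca1+ cell of the media could also carry the label. All 6 cultures were growth arrested, moved to DMEM with 0.1% FBS and kept for 72 h with 5 ng/mL TGF-β and 0.1% DMSO, and the Both cultures also received 50 μM PFI-3. The third group of the series, Stem, was kept in stem cell medium with the same DMSO, so medium and TGF-β changed together between Stem and TGF-β. No group received PFI-3 without TGF-β, and what the compound does to unstimulated cells was not measured here.

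Brg1, encoded by *Smarca4*, and its paralog Brm, encoded by *Smarca2*, are the alternative ATPases of the BAF chromatin remodeling complex, which moves nucleosomes at promoters and enhancers. Each ends in a bromodomain, a fold that binds acetylated histone tails, and PFI-3 occupies the bromodomains of this family without touching the ATPase. TGF-β drives mesenchymal cells toward the myofibroblast, a contractile cell that secretes collagen, elastin and periostin, and myofibroblasts of the adventitia stiffen injured arteries.

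The libraries held between 39453841 and 47741128 counts, and the biological coefficient of variation across replicates was 6.13%. Values below are normalized counts, the reads of a gene scaled to the mean library, and log2 fold changes are Both over TGF-β fitted with edgeR (quasi-likelihood), with p-values adjusted over all genes tested by Benjamini and Hochberg. Reads of mitochondrial ribosomal RNA took from 11.5% to 11.6% of the counts in TGF-β and from 13.7% to 14.2% in Both. Both replicate 3 stood apart from the other two Both libraries in its interferon-stimulated genes, as described with them. *Ly6a*, which encodes Sca1, was read in all 6 libraries at between 640 and 1094 normalized counts, and *Cd34* at between 10.9 and 27.4. Of 7 macrophage and leukocyte markers, *Adgre1*, *Itgam* and *Cd3e* were at 0 in all 6 libraries, and of 6 hepatocyte markers 5 were at 3 counts or fewer, although the extraction note in the labels names hepatic tissue. The summed level of 5 Schwann and neural markers was between 3019 and 3201 normalized counts in TGF-β and between 2397 and 2938 in Both, with *Sox10*, which defines the lineage, at 0. In that list *S100b*, a calcium-binding protein of glia and chondrocytes, fell from 422, 356 and 417 to 229, 240 and 241 (log2 fold change -0.75, edgeR adjusted p = 4.68e-04), and its part in the results below was not tested. The sums of mature smooth muscle markers went from between 3134 and 3634 to between 2917 and 3033, those of endothelial markers from between 52.9 and 84.9 to between 49.2 and 66.1, and those of epithelial markers from between 24.3 and 32.4 to between 14.8 and 22.5. In bulk RNA, fewer cells of a kind and less RNA per cell cannot be told apart.

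PFI-3 lowered 800 genes (5.38% of those tested) and raised 527 (3.54%) at an adjusted p below 0.05. Past the 2-fold threshold, which asks also for a log2 fold change beyond 1 in size, 70 genes were lower (0.47%) and 24 higher (0.161%). These counts moved with single libraries: without Both replicate 1 or 3 or any TGF-β library, between 432 and 500 genes were lower and between 198 and 322 higher, and without Stem replicate 2 there were 1192 and 1001. Most changes were small: 538 of the 800 lower genes and 433 of the 527 higher genes changed by less than 0.5 on the log2 scale, with medians of -0.36 and 0.26. By the GENCODE annotation, 90.0% of the 70 genes that fell past the 2-fold threshold and 66.7% of the 24 that rose past it were protein coding, beside 86.5% of all genes tested with an entry. The 24 were also scarce transcripts, with a median of 15.8 normalized counts over the 6 libraries, beside 51.4 for the 70 and 569 for all genes tested. In 5 of the 527 higher genes the TGF-β group had 3 counts or fewer in every library.

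**Figure D1:**
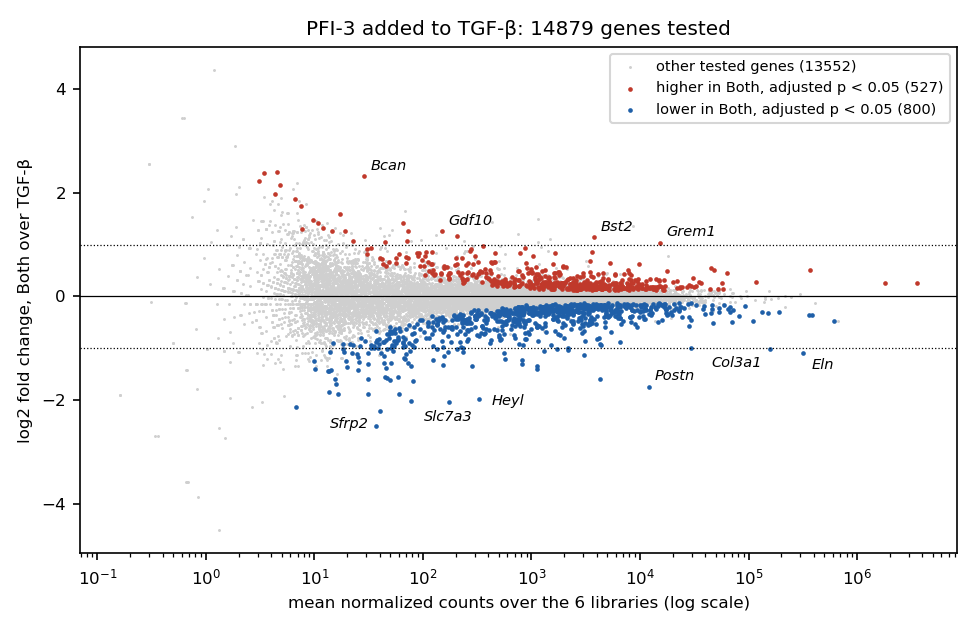
Each point is a gene, with the mean normalized counts of the 6 libraries on the x axis (log scale) and the log2 fold change of Both over TGF-β on the y axis; dotted lines mark 2-fold. The 800 lower genes (blue) reach further from 0 than the 527 higher ones (red) among well-counted genes, and the largest rises sit at low counts.

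The genes described first passed the 2-fold threshold, averaged 100 normalized counts or more over the 6 libraries and had every Both library on the same side of every TGF-β library. They are the 8 largest falls and the 3 rises that met these conditions. *Postn*, which encodes the matrix protein periostin of activated fibroblasts, had 18173, 20382 and 17015 normalized counts in TGF-β and 5163, 6244 and 5246 in Both. The log2 fold change was -1.74 (SE 0.0897, edgeR adjusted p = 2.09e-06). *Heyl*, a transcriptional target of Notch signaling, had 531, 523 and 510 normalized counts in TGF-β and 123, 156 and 121 in Both, a log2 fold change of -1.97 (SE 0.111, edgeR adjusted p = 2.76e-06). *Slc7a3*, a carrier of cationic amino acids, went from 262, 297 and 274 to 70.2, 81.9 and 52.7, a log2 fold change of -2.03 (SE 0.148, edgeR adjusted p = 1.62e-05).

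*Rgs5*, a GTPase activator that marks pericytes and dampens G protein signaling, had 6535, 7078 and 5615 normalized counts in TGF-β and 2026, 2619 and 1715 in Both. The log2 fold change was -1.60 (SE 0.124, edgeR adjusted p = 2.77e-05). *Gna14*, a G protein α subunit of the Gq class, fell from a mean of 220 ± 9.54 to 88.0 ± 13.1 (SD, n = 3 each), and *Nat8l*, the synthase of N-acetylaspartate, fell from 405 ± 53.9 to 160 ± 33.2 (SD, n = 3 each). *Col2a1*, the chain of cartilage type II collagen, fell from 1617 ± 90.3 to 614 ± 82.7, and *Lum*, which encodes lumican, a proteoglycan that spaces collagen fibrils, from 1622 ± 275 to 644 ± 86.1 (SD, n = 3 each).

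The rises concerned antagonists and ligands of the BMP branch of the TGF-β family and a transporter. *Grem1*, a secreted antagonist of BMP ligands, had 10414, 9083 and 10335 normalized counts in TGF-β and 21571, 18574 and 21166 in Both (log2 fold change 1.04, SE 0.0837, edgeR adjusted p = 3.21e-05). Groups without overlap were a condition of the choice, for this gene as for the others. *Gdf10*, which encodes a divergent BMP-like ligand, had 115, 66.9 and 86.9 normalized counts in TGF-β and 230, 185 and 224 in Both, a log2 fold change of 1.25 (SE 0.160, edgeR adjusted p = 5.91e-04). *Slc6a17*, a vesicular transporter of neutral amino acids, had 151, 106 and 129 in TGF-β and 320, 245 and 296 in Both. All 11 of these genes passed at an adjusted p below 0.05 in each of the 18 alternative fits.

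**Figure D2:**
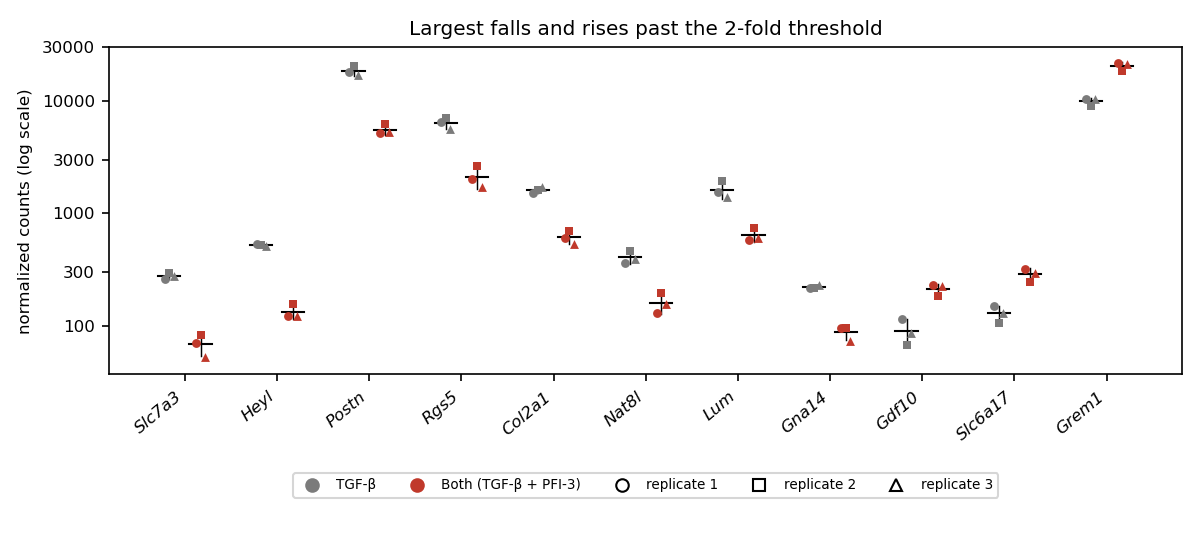
Normalized counts (log scale) of the 11 genes in each TGF-β (grey) and Both (red) library, with the mean (bar) and SD (vertical line) of 3 libraries; symbols mark the replicate number. The 11 were chosen to have groups without overlap, and the scarcest in Both is *Slc7a3*, at 52.7 to 81.9.

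Promoter sequences are shown for 4 of the genes that moved and that the results below return to, so that their makeup can be compared: the 250 bases before the RefSeq start (build GRCm38.p6, which is not the build of the counts), in lower case, with motif matches on either strand in capitals. The motifs were the TATA box, spelled TATAAA, the box named by its letters CCAAT, the core of the Smad element, spelled CAGAC, the site of TEAD factors, spelled GGAATG, and the GC box, spelled GGGCGG. *Postn* lies at chr3:54360857-54361106 (plus strand, the window with a TATA box of 2 listed), *Col3a1* at chr1:45311288-45311537 (plus strand), *Col5a3* at chr9:20815068-20815317 (minus strand) and *Grem1* at chr2:113758649-113758898 (minus strand).
Postn: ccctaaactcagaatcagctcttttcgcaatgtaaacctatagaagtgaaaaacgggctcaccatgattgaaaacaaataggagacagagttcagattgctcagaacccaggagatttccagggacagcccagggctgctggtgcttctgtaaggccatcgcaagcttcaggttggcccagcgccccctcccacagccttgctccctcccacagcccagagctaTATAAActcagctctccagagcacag
Col3a1: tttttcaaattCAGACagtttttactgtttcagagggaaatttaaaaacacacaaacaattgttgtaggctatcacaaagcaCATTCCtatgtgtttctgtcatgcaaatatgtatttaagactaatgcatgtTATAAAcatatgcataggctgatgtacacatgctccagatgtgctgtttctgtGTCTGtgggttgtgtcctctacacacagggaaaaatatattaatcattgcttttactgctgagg
Col5a3: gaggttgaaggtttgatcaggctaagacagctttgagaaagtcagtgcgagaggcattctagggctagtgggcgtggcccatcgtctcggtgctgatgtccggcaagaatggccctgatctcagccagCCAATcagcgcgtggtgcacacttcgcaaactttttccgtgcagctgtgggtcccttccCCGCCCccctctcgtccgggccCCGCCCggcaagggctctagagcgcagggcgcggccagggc
Grem1: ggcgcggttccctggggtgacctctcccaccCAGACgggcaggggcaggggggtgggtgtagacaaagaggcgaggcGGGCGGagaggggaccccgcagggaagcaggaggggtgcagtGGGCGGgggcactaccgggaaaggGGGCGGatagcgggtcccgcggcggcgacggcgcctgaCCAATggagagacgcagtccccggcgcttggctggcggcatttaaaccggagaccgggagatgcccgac

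The TATA box match of *Postn* began 26 bases before the start and was its only match. *Col3a1* held CAGAC at 239 and 64 bases, GGAATG at 168 bases and TATAAA at 117 bases before the start, and no CG dinucleotide, whereas *Grem1* held 24 CG dinucleotides, 3 GC boxes, a CCAAT box and CAGAC, and *Col5a3* 2 GC boxes and a CCAAT box. Among the 13385 windows of the 10461 tested genes with a RefSeq window, TATAAA was in 6.53%, CCAAT in 35.4%, CAGAC in 40.8%, GGAATG in 10.7% and GGGCGG in 57.3%, so that a match to most of these is common by itself. Motif shares of lower and higher genes are not compared here, and 75.0% of the lower and 76.7% of the higher genes had a window. The motif TGANTCA was also searched and had no match in the windows shown. Of windows not shown, that of *Col15a1* held no match and that of *Acta2* held CAGAC and GGAATG but no TATAAA. A match is a description of the letters only.

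Gene programs were described by 40 lists, each read against the share of all genes called (5.38% lower, 3.54% higher) and against the median over all genes tested, a log2 fold change of -0.0020. Collagen chains were the list with the largest share of lower members: 26 of 34 tested chains fell, none rose, and the median was -0.49. The 8 chains that did not pass had at most 38.6 mean normalized counts in TGF-β. *Col15a1*, a basement membrane collagen with proteoglycan side chains, had 4111, 4183 and 4278 normalized counts in TGF-β and 1988, 1940 and 1785 in Both, a log2 fold change of -1.14 (SE 0.0519, edgeR adjusted p = 1.00e-06).

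The fall of the fibrillar chains was uneven. *Col3a1* (type III) went from 199137, 232577 and 201328 normalized counts to 96091, 121698 and 97194, and *Col5a3* (type V) from 1034, 1279 and 1137 to 456, 536 and 489, with log2 fold changes of -1.01 and -1.22 (edgeR adjusted p = 6.34e-04 and 1.28e-04). *Col1a1* (type I) fell less, from 702840, 732988 and 686626 to 520779, 522923 and 493626 (log2 fold change -0.47, SE 0.0590, edgeR adjusted p = 5.53e-04). The basement membrane chains *Col4a1* and *Col4a2*, which are transcribed from a shared promoter region, fell by 0.38 and 0.31 on the log2 scale. *Col3a1* stood in the Both group at a mean of 104994 ± 14476, beside 104354 in Stem, whereas *Col1a1* at 512443 ± 16331 remained above the Stem mean of 83526.

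Other parts of the matrix were also lower. Of 20 tested elastic fiber genes 8 fell and 2 rose (median -0.16), and *Eln*, which encodes elastin, had 414025, 468605 and 419909 normalized counts in TGF-β and 210265, 226092 and 177002 in Both (log2 fold change -1.09, edgeR adjusted p = 3.90e-04). *Fbn1*, the microfibril scaffold protein fibrillin, fell by 0.32, and *Ltbp4*, a binding protein of latent TGF-β, by 0.80. Among 23 matricellular genes 5 fell and *Ccn1*, a YAP-responsive secreted protein, rose by 0.32. Proteoglycans had 5 of 16 lower, among them *Dcn* (decorin, log2 fold change -0.80), and 1 higher, the brain proteoglycan gene *Bcan*, with 9.71, 8.11 and 10.7 normalized counts in TGF-β and 60.3, 31.6 and 51.8 in Both. Integrins had 8 of 19 lower, and cartilage and tendon genes 10 of 21 lower and none higher. Collagen modifying and crosslinking enzymes had 6 of 27 lower and 2 higher with a median of -0.01, so that most enzymes of this group did not pass while most of their substrates did. Among proteases and inhibitors 9 of 34 fell and 3 rose, and among the rises was *Plat*, a plasminogen activator (log2 fold change 0.63).

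Myofibroblast and contractile genes fell to different degrees. Of 16 myofibroblast genes, several of which are also collagens, 9 fell and none rose (median -0.41), and of 28 smooth muscle contractile genes 8 fell and none rose (median -0.17). *Acta2*, smooth muscle α-actin, had 12040, 10862 and 10744 normalized counts in TGF-β and 7554, 7939 and 6850 in Both (log2 fold change -0.59, SE 0.0777, edgeR adjusted p = 6.80e-04). *Cnn1*, the actin-binding protein calponin, had 365, 327 and 313 in TGF-β and 205, 235 and 208 in Both (log2 fold change -0.63, edgeR adjusted p = 0.00914). *Myh11*, the smooth muscle myosin heavy chain, had 110, 71.0 and 84.0 in TGF-β and 45.0, 64.2 and 45.6 in Both and did not pass (log2 fold change -0.78, edgeR adjusted p = 0.0776). *Mrtfa*, the coactivator of SRF at contractile promoters, had a log2 fold change of 0.19 and did not pass (edgeR adjusted p = 0.0623).

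**Figure D3:**
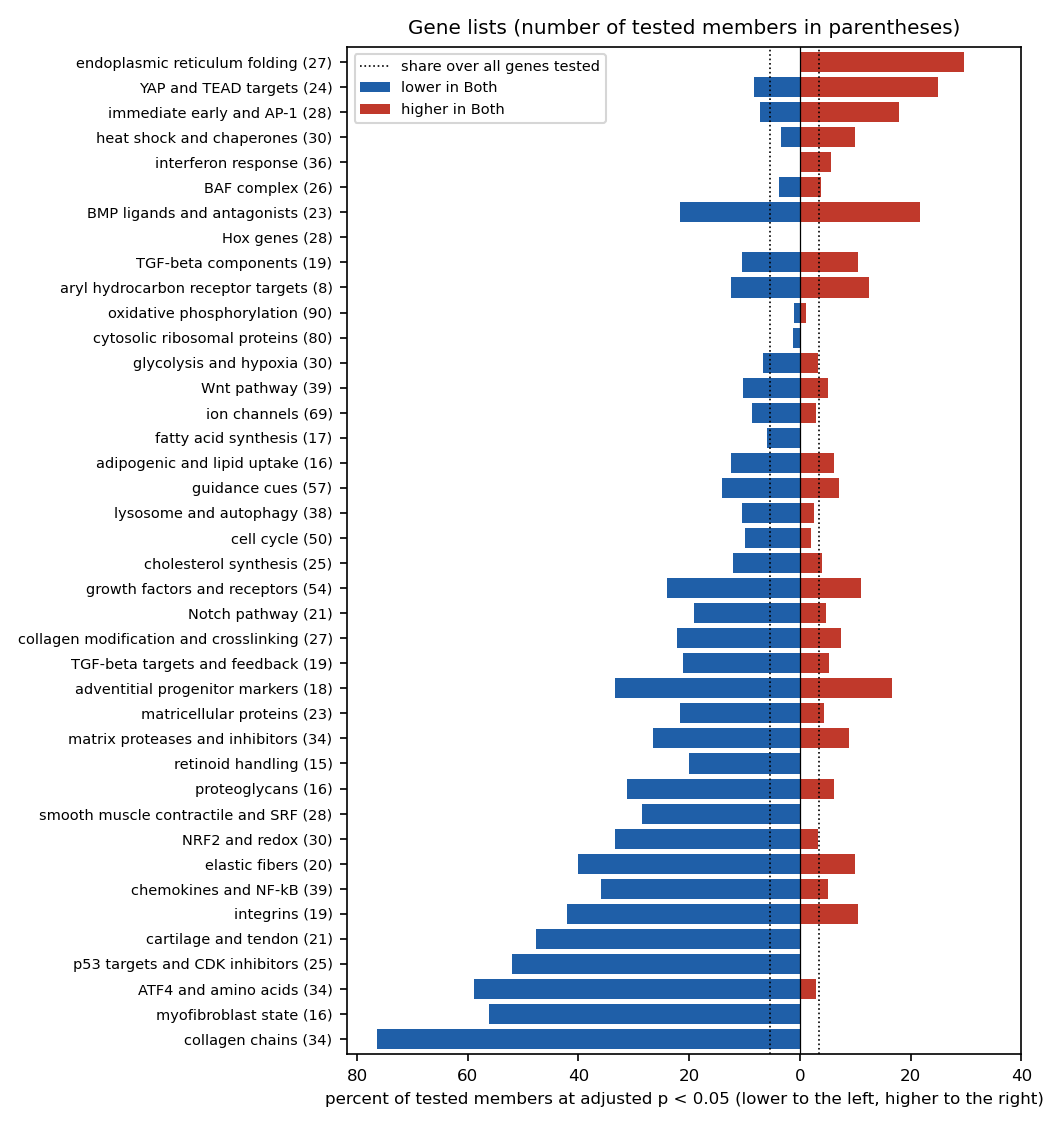
Bars give, for each of the 40 lists, the percent of tested members lower (blue, to the left) and higher (red, to the right) in Both at an adjusted p below 0.05; dotted lines mark the shares over all genes tested (5.38% and 3.54%). Collagen chains, ATF4 and amino acid genes and myofibroblast genes lead the lower side, and endoplasmic reticulum folding genes the higher side.

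The components of TGF-β signaling themselves changed little. Of 19 ligands, receptors and Smads 2 were lower and 2 higher, with a median of -0.05, and the receptor genes *Tgfbr1* and *Tgfbr2* had log2 fold changes of -0.08 and -0.05 (edgeR adjusted p = 0.387 and 0.596). *Tgfbr3*, the coreceptor betaglycan, rose from 1634, 1557 and 1542 normalized counts to 2426, 2204 and 2472 (log2 fold change 0.59, SE 0.0530, edgeR adjusted p = 6.78e-05). Direct targets did not move together: 4 of 19 fell and 1 rose. The target and cell cycle inhibitor *Cdkn2b* fell from 3670, 3682 and 3657 to 2582, 2536 and 2646 (log2 fold change -0.50, edgeR adjusted p = 1.23e-05). The replicates of a group lay much closer to each other than the groups did. *Smad7*, the inhibitory Smad, had a log2 fold change of -0.02 (edgeR adjusted p = 0.845).

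Among 23 BMP ligands and antagonists, 5 were lower and 5 higher, and *Grem1* and *Gdf10* led the rises. In the Notch pathway 4 of 21 fell, which were *Heyl*, the receptor genes *Notch4* (465 ± 25.6 to 285 ± 12.9, SD, n = 3 each) and *Notch1*, and the ligand gene *Jag1* (7841 ± 148 to 5422 ± 629, SD, n = 3 each), while *Rbpj*, the DNA-binding partner of the Notch receptors, rose by 0.26. The Wnt pathway had 4 of 39 lower and 2 higher, and *Sfrp2*, a secreted inhibitor of Wnt ligands chosen here after its values were seen, had 79.9, 58.8 and 59.6 normalized counts in TGF-β and 12.6, 18.8 and 11.4 in Both. *Crabp2*, a cellular carrier of retinoic acid, fell from 979, 1381 and 1093 to 346, 601 and 461 (log2 fold change -1.30, edgeR adjusted p = 6.05e-04). Of 15 retinoid genes 3 fell and none rose.

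Of 34 tested genes of amino acid synthesis, transport and the ATF4 response, 20 fell and 1 rose, with a median of -0.28, and *Atf4* itself did not pass (log2 fold change -0.23, edgeR adjusted p = 0.155). *Slc7a5*, the light chain of the leucine exchanger, had 6346, 7222 and 6543 normalized counts in TGF-β and 4151, 4532 and 3748 in Both (log2 fold change -0.69, edgeR adjusted p = 2.31e-04). *Slc7a11*, the cystine carrier, fell by 0.71, *Cth*, which makes cysteine, by 0.72, and *Phgdh*, the first enzyme of serine synthesis, by 0.48 on the log2 scale. The member that rose was *Slc38a2*, a glutamine and alanine carrier (log2 fold change 0.49, edgeR adjusted p = 2.11e-04). The proline synthesis gene *Pycr1* and the serine synthesis gene *Psat1* had log2 fold changes of 0.02 and -0.04 and did not pass.

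The p53 and CDK inhibitor list was also lower, with 13 of 25 genes falling and none rising (median -0.19), though 3 of those 13 are shared with lists above. *Pmaip1*, the BH3-only death protein Noxa, fell from 4028 ± 284 to 2228 ± 259, and *Cdkn2a*, the locus of p16 and p19ARF, from 3912 ± 162 to 2656 ± 166 (SD, n = 3 each). Cell cycle genes did not follow as a group: 5 of 50 fell and 1 rose with a median of -0.01, and the proliferation genes *Mki67* and *Top2a* did not pass. Among those that fell was *Ccnd1*, cyclin D1, which had 5394, 5867 and 5361 normalized counts in TGF-β and 2751, 3188 and 2865 in Both (log2 fold change -0.92, edgeR adjusted p = 2.81e-05).

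Chemokine, complement and NF-κB genes had 14 of 39 lower and 2 higher (median -0.22). *C3*, the central complement component, had 3028, 2821 and 2891 normalized counts in TGF-β and 1437, 1435 and 1544 in Both (log2 fold change -0.98, SE 0.0545, edgeR adjusted p = 2.76e-06), and had been at a mean of 54618 in Stem. The alarmin *Il33* went from 780, 886 and 719 to 295, 435 and 312 (log2 fold change -1.20), the membrane-bound chemokine *Cx3cl1* from 1520, 1505 and 1436 to 825, 884 and 765 (log2 fold change -0.85), and the acute phase gene *Saa3* from 181, 153 and 187 to 69.3, 78.0 and 75.5. The higher members were *Cxcl12*, a chemokine of stromal niches (log2 fold change 0.45), and *Il6* (0.33). The summed level of the 7 macrophage and leukocyte markers was between 71.0 and 103 normalized counts in TGF-β and between 152 and 156 in Both, and this came from *Csf1r*, the receptor of macrophage colony stimulating factor (89.6, 53.8 and 84.9 in TGF-β and 135, 143 and 137 in Both), beside *Cd68*, while the other 5 markers were at 3 counts or fewer in each library. Its part in the inflammatory genes was not tested.

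Interferon-stimulated genes gave the widest spread among the Both libraries. All 36 tested genes had a fitted log2 fold change above 0, with a median of 0.78, yet only 2 passed, *Bst2* and *Trim30a*, and 5 of the 36 were without overlap between the groups, beside 32.7% of all genes tested. Relative to the mean of the TGF-β libraries, the median of the 36 was 1.21 in Both replicate 1, 0.69 in Both replicate 2 and -0.15 in Both replicate 3 on the log2 scale, and between -0.08 and 0.05 in the TGF-β libraries. Both replicate 1 lay above all TGF-β libraries in all 36 genes and Both replicate 2 in 34, whereas Both replicate 3 lay above them in 6, within their range in 7 and below it in 23.

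*Bst2*, which encodes the virus-tethering protein tetherin, had 2214, 2450 and 2453 normalized counts in TGF-β and 7793, 5480 and 2434 in Both (log2 fold change 1.14, edgeR adjusted p = 0.0470), so that the third Both library fell inside the TGF-β range. *Isg15*, a ubiquitin-like modifier induced by interferon, had 711, 743 and 770 in TGF-β and 2440, 1660 and 537 in Both and did not pass (edgeR adjusted p = 0.129). *Bst2* and *Trim30a* were lost under DESeq2 and in 6 of the 9 fits that left out a library: without Both replicate 1 or 2, without each TGF-β library in turn and without Stem replicate 3. The median of the list was 0.35 without Both replicate 1 and 1.05 without Both replicate 3, and the source of the spread was not tested. The Stem libraries, which received no PFI-3, had 689, 1187 and 1292 normalized counts of *Bst2* and 316, 589 and 647 of *Isg15*. Stem was kept in another medium. The TGF-β libraries, also without the compound, lay between 2214 and 2453 for *Bst2* and between 711 and 770 for *Isg15*. Collagen chains showed no such spread, with medians of -0.45, -0.39 and -0.53 in the 3 Both libraries.

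**Figure D4:**
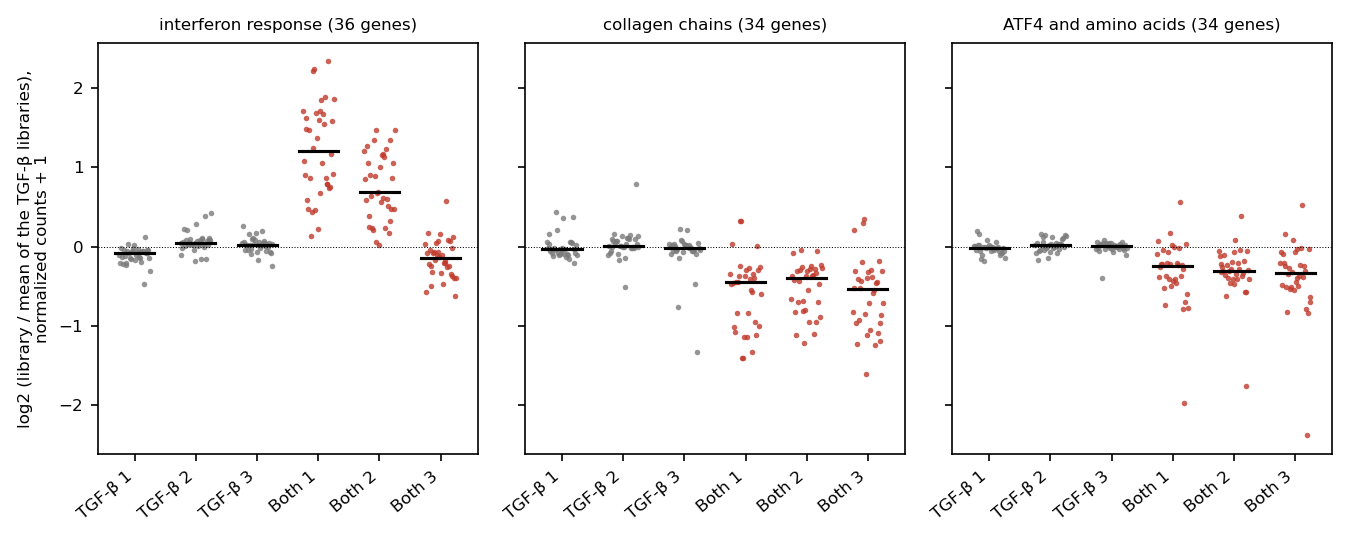
Each point is a gene in a library, as the log2 ratio of its normalized counts plus 1 to the mean of the TGF-β libraries, for interferon response (36 genes), collagen chains (34) and ATF4 and amino acid genes (34); bars are medians. The interferon genes sit at 1.21, 0.69 and -0.15 in the 3 Both libraries, while the other lists sit at like levels in all 3.

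Rises were spread more thinly over programs. Endoplasmic reticulum folding and export genes had 8 of 27 higher and none lower, each by between 0.14 and 0.21 on the log2 scale. *Dnajc3*, a chaperone cofactor of the endoplasmic reticulum, went from 15412, 15916 and 16220 normalized counts to 18292, 18488 and 17926, and *Sec23a*, a COPII coat protein of secretory vesicles, from 10520, 10163 and 10861 to 12498, 12151 and 11923 (edgeR adjusted p = 0.00611 and 0.00500). The list members *Creld2* and *Edem1* passed more narrowly (edgeR adjusted p = 0.0445 and 0.0479). Their calls were lost when any of the 6 libraries compared was left out, without Stem replicate 3 and with the size factors of DESeq2. YAP and TEAD targets had 6 of 24 higher and 2 lower, and immediate early genes 5 of 28 higher and 2 lower, led by *Dusp1*, a phosphatase of MAP kinases, and *Ier3*, a stress-response gene (1174 ± 86.8 to 2104 ± 52.7, SD, n = 3 each, edgeR adjusted p = 8.23e-05). *Dusp1* had 714, 442 and 637 in TGF-β and 1421, 746 and 1255 in Both, and its call (edgeR adjusted p = 0.0282) was lost without Both replicate 1 or 3 and without TGF-β replicate 2 or 3. Heat shock and chaperone genes had 3 of 30 higher and 1 lower.

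Growth factors went both ways, with 13 of 54 lower and 6 higher. *Angpt1*, the ligand that quiets Tie2 receptors on vessels, fell from 205, 213 and 223 normalized counts to 93.6, 93.8 and 101 (log2 fold change -1.15, edgeR adjusted p = 3.44e-05), and *Igfbp5*, a carrier of insulin-like growth factors, from 799, 690 and 800 to 403, 284 and 377. *Fgf10*, a mesenchymal growth factor, rose from 572, 489 and 641 to 1204, 850 and 994 (log2 fold change 0.84, edgeR adjusted p = 0.00127). *Igf1* was lower, at 17602, 16787 and 16940 against 12548, 12226 and 11538, but its adjusted p of 0.0431 with edgeR did not hold when any of the 6 libraries compared was left out, without Stem replicate 3, with DESeq2 or with total counts as the scale.

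Adventitial progenitor markers did not move as a group. Of 18 tested, 6 fell and 3 rose, with a median of -0.17. *Pi16*, a marker of universal fibroblasts, fell by 0.59 and *Thy1* by 0.47, while *Ackr3*, a scavenging receptor of CXCL12, rose by 0.51. *Ly6a* (941 ± 133 against 734 ± 83.4, SD, n = 3 each) and *Cd34* did not pass, with log2 fold changes of -0.36 and -0.62 (edgeR adjusted p = 0.0859 and 0.234). *Pdgfra*, a receptor of mesenchymal progenitors, had 5688, 5132 and 5496 in TGF-β and 6611, 5917 and 6275 in Both. Its call (log2 fold change 0.20, edgeR adjusted p = 0.0485) was lost when any of the 6 libraries but Both replicate 2 was left out, without Stem replicate 3 and with the size factors of DESeq2.

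The remaining programs gave shares on both sides of those over all genes. The BAF complex, which holds the targets of PFI-3, had 1 of 26 subunits lower, *Phf10*, and 1 higher, *Ss18l1*, whose call (log2 fold change 0.35, edgeR adjusted p = 0.0363) was lost when any of the 6 libraries compared was left out. *Smarca4* had 5162, 5101 and 5059 normalized counts in TGF-β and 5029, 4907 and 4948 in Both, *Smarca2* had 4562, 4563 and 4415 against 4386, 3992 and 4191, and *Pbrm1*, the bromodomain subunit polybromo, 6455, 6745 and 6646 against 6835, 7220 and 6948, with edgeR adjusted p-values of 0.654, 0.254 and 0.248. Cytosolic ribosomal proteins had 1 of 80 lower and none higher, oxidative phosphorylation genes 1 of 90 lower and 1 higher, and Hox genes none of 28 in either direction by edgeR, where 2 had an unadjusted p below 0.05, and 1 of 28 by DESeq2. The smallest adjusted p among the Hox genes was that of *Hoxa3*, 0.0546. The higher oxidative phosphorylation gene was the mitochondrially encoded *mt-Co1* (106582 ± 1560 to 129367 ± 2370, SD, n = 3 each, log2 fold change 0.28), beside log2 fold changes of 0.26 and 0.25 of the mitochondrial ribosomal RNAs *mt-Rnr1* and *mt-Rnr2*. Glycolysis and hypoxia (2 of 30 lower, 1 higher) and fatty acid synthesis (1 of 17 lower) lay near the 5.38% and 3.54% of all genes, and ion channels had 6 of 69 lower and 2 higher. Above the lower share of all genes were guidance cues (14.0% lower and 7.02% higher of 57), lipid uptake (12.5% lower of 16), cholesterol synthesis (12.0% lower of 25) and lysosome and autophagy genes (10.5% lower of 38), each with a median between -0.04 and -0.02. NRF2 and redox genes had 10 of 30 lower (33.3%) and 1 higher, with a median of -0.10. Of 8 tested aryl hydrocarbon receptor genes, *Cyp1b1*, a heme enzyme it induces, rose from 40123 ± 2372 to 57047 ± 4974 (SD, n = 3 each), and *Ahr*, the receptor, fell by 0.69 on the log2 scale (edgeR adjusted p = 0.0162). The call of *Ahr* was lost without Both replicate 1 or 3 and without TGF-β replicate 2.

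Genes that had hardly responded to TGF-β were considered apart. They were the 7550 genes whose log2 fold change of TGF-β over Stem was below 0.5 in size, a comparison that shares the TGF-β libraries with this one. In that class 187 genes (2.48%) were lower and 232 (3.07%) higher with PFI-3, beside 5.38% and 3.54% of all genes tested. The median size of these changes in the class was 0.23 on the log2 scale. Past the 2-fold threshold were 6 lower and 3 higher genes. With the stricter definition of an adjusted p of at least 0.05 between Stem and TGF-β, the class held 63 lower and 78 higher genes. Without Both replicate 1 or 3 or any TGF-β library it held between 78 and 95 lower and between 70 and 135 higher genes, and without Stem replicate 2 it held 349 and 478. All 4 tested collagen chains in the class fell, as did 5 of 11 contractile genes, while none of its 52 ribosomal protein genes and none of its 18 BAF subunits passed. Of 1575 genes higher in TGF-β than in Stem past the 2-fold threshold, PFI-3 lowered 22.2% and raised 2.22%. Of 2164 genes lower past it, PFI-3 lowered 2.91% and raised 6.42%. The shared TGF-β libraries can tilt such shares by themselves, so they are a description only.

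The 6 largest falls and 6 largest rises of the class are described, among genes that averaged 100 normalized counts or more and in which no Both library lay inside the TGF-β range. *Col14a1*, which encodes a collagen on the surface of fibrils, had 5585, 6170 and 5591 normalized counts in TGF-β, 2865, 3259 and 2977 in Both and a mean of 6855 in Stem (log2 fold change -0.93, SE 0.0723, edgeR adjusted p = 2.77e-05). *Col18a1*, the source of endostatin, had 1054, 1270 and 1097 in TGF-β and 639, 703 and 602 in Both, beside 1158 in Stem (log2 fold change -0.82, edgeR adjusted p = 7.82e-05). Both thus also lay below the Stem mean in these genes. The choice of large falls among genes of small TGF-β response fixed this in advance. *Ltbp4* had 5476, 5243 and 5324 in TGF-β and 2999, 3108 and 3089 in Both (edgeR adjusted p = 1.25e-04).

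*H2-D1*, a class I major histocompatibility antigen with near-identical relatives, had 2164, 2390 and 2252 normalized counts in TGF-β and 1486, 1424 and 1171 in Both (log2 fold change -0.74), while its relative *H2-K1* had a log2 fold change of -0.01. How reads that match several of these relatives were counted is not given in the sources used here, which also bears on *Clca3a2*, a member of the chloride channel accessory family (537 ± 59.3 to 288 ± 16.7), and on the lipid transporter gene *Abca8b* (331 ± 70.6 to 182 ± 32.4, SD, n = 3 each). The call of *Abca8b* was lost without Both replicate 1 and without TGF-β replicate 2.

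Among the rises of the class, *Pde8b*, a phosphodiesterase specific for cyclic AMP, had 227, 210 and 239 normalized counts in TGF-β, 375, 364 and 414 in Both and a mean of 223 in Stem (log2 fold change 0.77, SE 0.0843, edgeR adjusted p = 2.17e-04). *Ankrd1*, a muscle ankyrin repeat protein and YAP target, had 1710, 1639 and 1717 in TGF-β and 2679, 2294 and 2487 in Both (log2 fold change 0.56, edgeR adjusted p = 5.60e-04). That all Both libraries lay above all TGF-β libraries was a condition of the choice. *Cep295nl* rose by 0.58, the surface sialoglycoprotein gene *Cd24a* by 0.55 and the noncoding host gene *Snhg11* by 0.67 on the log2 scale. The call of *Cd24a* was lost without TGF-β replicate 2, and that of *Snhg11* without Both replicate 3, Stem replicate 3 and TGF-β replicate 1 or 2. *Trim30a*, an interferon-induced regulator, met the rule with 745, 813 and 732 in TGF-β and 1718, 1393 and 832 in Both, and shares the spread of its list.

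**Figure D5:**
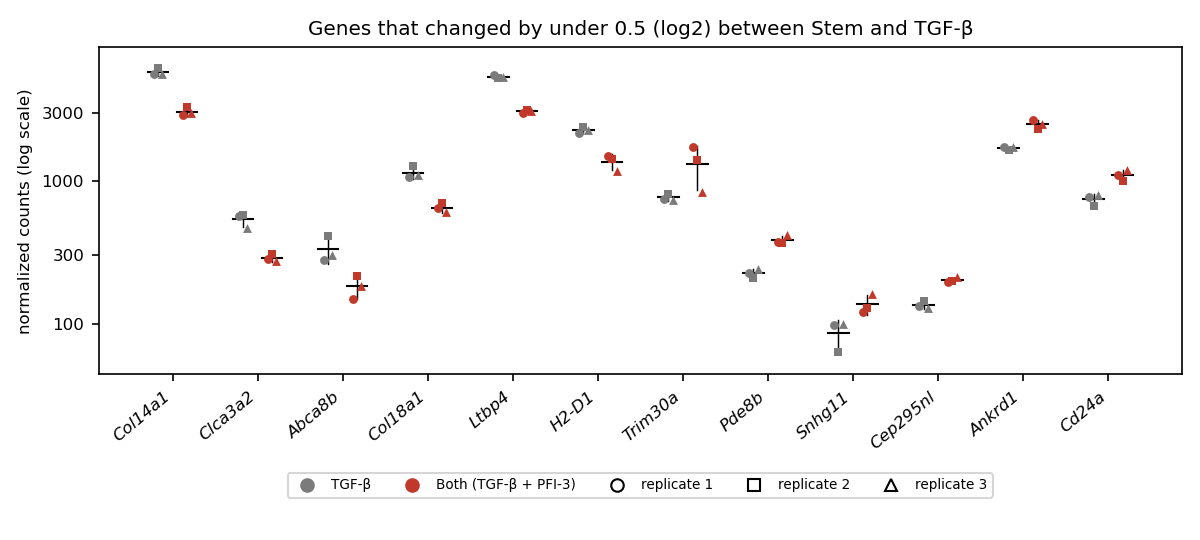
Normalized counts (log scale) of the 6 largest falls and 6 largest rises among genes that changed by less than 0.5 on the log2 scale between Stem and TGF-β, in each TGF-β (grey) and Both (red) library, with mean (bar) and SD (vertical line) of 3 libraries. The 12 were chosen to have groups without overlap, and *Trim30a* has the widest spread in Both, from 832 to 1718.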

How the data were processed

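RNA was depleted of ribosomal RNA, made into stranded paired-end libraries and sequenced by the authors on an Illumina NovaSeq. The deposited values are raw counts of reads per gene, 1 column a library, with Ensembl gene IDs. The sources differ on how they were made: the processing notes of the submitters name HISAT2 2.2.1, SAMtools 1.13 and HTSeq 0.11.3, whereas the study's methods name Flexbar and STAR, both on GRCm39. The strand setting and the handling of reads with several alignments are not given in the sources used here.

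From these counts, genes were filtered with filterByExpr and all 9 libraries were fitted together with the quasi-likelihood test of edgeR 4.0.16 (R 4.3.3, limma 3.58.1), TMM scaling and group as the only term. Adjusted p is by Benjamini-Hochberg over the 14879 genes tested. Normalized counts are scaled to a mean effective library of 41184338, so 3 counts correspond to between 2.63 and 3.26 normalized counts. DESeq2 1.42.0 was an alternative. Tested on simulated data of this comparison with 14686 genes, edgeR recovered 90 of 100 genes changed by 0.5 on the log2 scale and 100 of 100 changed by 1.5, and 11.6% of its calls were false. The simulation gave every gene the same spread, changed only well-counted genes and had no library effects. Its rates therefore do not carry over to scarce genes or to genes that vary between libraries.

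Genes were named by rule: the 8 largest falls and rises past the 2-fold threshold among genes that averaged 100 normalized counts or more and whose groups were apart, 6 of each without a fold minimum among genes of small TGF-β response, up to 4 called members of each list, and genes fixed by name from the study. *Atf4*, *Bcan*, *Cd68*, *Col4a1*, *Col4a2*, *Csf1r*, *Cxcl12*, *Fbn1*, *H2-K1*, *Hoxa3*, *Il6*, *Isg15*, *Mki67*, *Phgdh*, *Psat1*, *Pycr1*, *Rbpj*, *S100b*, *Sfrp2*, *Slc38a2*, *Smad7*, *Tgfbr1*, *Tgfbr2*, *Top2a* and the mitochondrial ribosomal RNAs were named after their values were seen. The comparison, the 40 lists and the rule were chosen with earlier results of these data known. The study calls the 3 libraries of a group independent replicates of cultured cells from pooled mice, and p-values measure the spread between those libraries. Library totals limit counting error only. Values of a few single genes are not reported here.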

Additional observations from a re-analysis of the deposited data

How the results depend on the processing

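None of the genes named by rule and called changed direction in any of the 18 alternatives. These genes were chosen for their calls, many with groups that did not overlap, so a reversal was unlikely from the outset. The medians of 9 of the 40 lists, all between -0.04 and 0.04, changed sign in at least 1 alternative run. Of 143 genes named by rule and called, 99 kept an adjusted p below 0.05 in all 18 alternatives, which do not include the TREAT test given below. Counts of calls moved with the setting. The edgeR TREAT test against 2-fold left 4 lower and 0 higher genes, with 28 higher genes at an unadjusted p below 0.05, beside 62 lower and 21 higher past the 2-fold threshold with DESeq2. Without a filter, 859 genes were higher, 71 of them past the 2-fold threshold. A fit of the 6 libraries alone gave 1253 lower and 1057 higher genes, and 372 and 517 among genes of small TGF-β response, where the definition by adjusted p gave 63 and 78.

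Leaving out 1 library gave between 57 and 80 lower and between 11 and 46 higher genes past the 2-fold threshold, between 432 and 1192 lower and between 198 and 1001 higher genes, and between 78 and 349 lower and between 70 and 478 higher genes of small response. Lower genes numbered 432 and 466 without Both replicate 1 and 3 and 500, 441 and 472 without TGF-β replicate 1, 2 and 3. Higher genes numbered 219 and 322 without those Both libraries, 287, 198 and 230 without those TGF-β libraries and 1001 without Stem replicate 2. Higher genes past the 2-fold threshold numbered 44 without Both replicate 3, 46 without Stem replicate 2 and 11 without TGF-β replicate 2 or 3. Genes of small response numbered 78 lower and 72 higher without Both replicate 1, 84 and 135 without Both replicate 3, 95 and 113, 83 and 70, and 94 and 90 without TGF-β replicate 1, 2 and 3, and 349 and 478 without Stem replicate 2, with 356 higher without Stem replicate 1. The cause was not tested.

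The replicate block gave 1259 lower and 1050 higher genes, 43 higher past the 2-fold threshold and 383 and 490 of small response, and the block in the 6 libraries gave 1940, 1814, 50, 717 and 935. The labels carry matching letters A, B and C, but do not say that a letter stands for a shared culture. Deviations of same-numbered TGF-β and Both libraries correlated at 0.187, 0.476 and 0.0872 over 10752 genes. TGF-β replicate 2 correlated with Both replicate 1 and 3 at -0.257 and -0.217. Deviations from a group mean cancel within the group, so these negative values follow from the 0.476 and add no evidence. TGF-β replicate 3 correlated best with Both replicate 1 (0.119). These values do not settle whether the numbers are pairs. The main fit had no block because the methods of the study name none, and the source of the correlations was not tested.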
